A study of Saccharomyces cerevisiae with 91 samples.

Results

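The promoters of 10 heat shock and chaperone genes of Saccharomyces cerevisiae, HSP12, HSP26, HSP42, HSP78, HSP82, HSC82, HSP104, SSA1, SSA2 and SSA4, were described by their in vivo nucleosome positions. The genes were chosen by their common names in a deposited table of 4963 transcripts, 4536 of which are open reading frames (ORFs), and each of the 10 has 1 ORF row. The study reconstituted chromatin on a yeast genomic plasmid library with the remodeler INO80 and measured nucleosomes by MNase-seq, in which micrococcal nuclease digests linker DNA and the protected fragments are sequenced. Of its 91 libraries, 1 is from living cells, and by the study's methods that library gave the dyads, the midpoints of nucleosomes, to which the other libraries were aligned. It came from log phase cells of the wild-type strain BY4741 in YPD medium, and neither a heat-shocked sample nor a replicate of it was used here. The columns of the table name no library. The table holds neither peak heights nor read numbers, so the depth behind a dyad is unknown. All comparisons below are between genes, with dyads of 1 culture and without a test. Transcription start sites were annotated by the study from separate transcriptome data. Distances from them join that annotation with the dyads of this culture.

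Chaperones help proteins fold, keep unfolded proteins soluble or take aggregates apart. In budding yeast their genes are switched on in heat by the heat shock factor Hsf1, which binds heat shock elements (HSEs), and in several kinds of stress by Msn2 and Msn4, which bind stress response elements (STREs). Some members of these families are made at all times and others mainly under stress, and a nucleosome at a promoter can cover the sequences that transcription factors and the TATA-binding protein recognize. By textbook knowledge of their expression, which was not measured here, 6 members were taken as stress-induced (HSP12, HSP26, HSP42, HSP78, HSP104 and SSA4) and 2 as constitutive (HSC82 and SSA2). HSP82 and SSA1 have basal expression and are further induced in heat, and were kept apart.

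The heat shock elements of the members carry the main motif finding and are shown first. An HSE was counted as 3 units of GAA in alternating orientation with 2 bases between them (GAA, TTC, GAA or TTC, GAA, TTC), or in a gapped form in which TTC and GAA, 2 bases apart, are followed after 7 bases by GAA. Both strands of the 500 bp before the transcription start site (TSS) were searched. Such an element was in 2.69% of ORF promoters and in 8 of the 10 members, with 1 per member after overlapping matches were joined. Each is given with 10 bp on either side, 5′ to 3′ on the strand of its gene, from the R64 reference, with the element in capitals.
HSP42: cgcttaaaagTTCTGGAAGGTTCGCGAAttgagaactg
HSP78: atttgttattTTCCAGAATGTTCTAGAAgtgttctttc
HSP104: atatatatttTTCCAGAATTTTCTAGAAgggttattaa
SSA4: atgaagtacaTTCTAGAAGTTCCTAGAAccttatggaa
HSP82: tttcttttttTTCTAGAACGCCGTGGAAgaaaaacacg
SSA1: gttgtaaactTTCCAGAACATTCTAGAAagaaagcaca
HSC82: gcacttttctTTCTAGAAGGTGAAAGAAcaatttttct
SSA2: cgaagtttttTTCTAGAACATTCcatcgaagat

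The elements of HSP42 (chrIV:806378-806395), HSP78 (chrIV:974473-974490), HSP104 (chrXII:88321-88338) and SSA1 (chrI:141778-141795) hold several overlapping matches, so that adjoining units run through all of their 18 bp. Those of HSP82 (chrXVI:98843-98860), HSC82 (chrXIII:632138-632155) and SSA4 (chrV:364336-364353) matched only in the gapped form. SSA2 has the shortest element, 13 bp at chrXII:97706-97718. HSP12 and HSP26 had no match in this window. HSP26 has the 2-unit match TTCTAGAA 269 to 262 bp upstream of its TSS, and a 3-unit element only 782 bp upstream.

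In 5 of the 8 members the centre of the element lay at nearly the same distance from the TSS. It was 171.5 bp upstream in HSP42 and SSA4, 172.5 bp in HSP78, and 174.5 bp in HSP82 and HSC82. It was 130 bp upstream in SSA2, 119.5 bp in HSP104 and 105.5 bp in SSA1. All 8 were between 100 and 200 bp upstream, against 32 of 121 HSEs of ORF rows with a −1 dyad (26.4%, the 8 included), and the range from 170 to 175 bp held 6 of these 121, 5 of them at members. These ranges were chosen after the distances were seen.

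**Figure D1:**
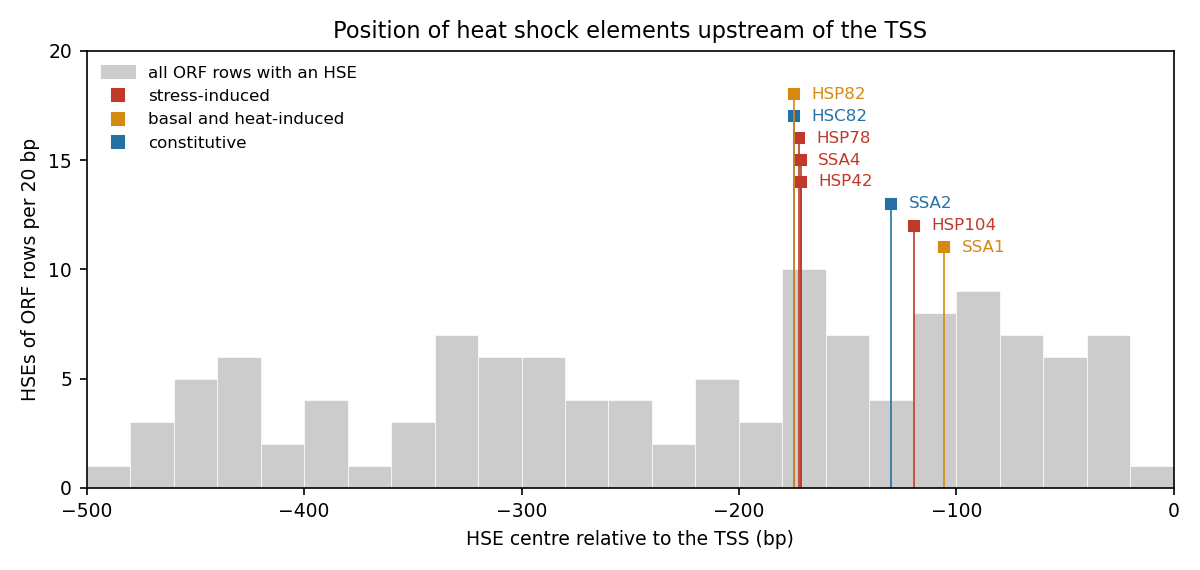
Distance of the HSE centre from the TSS in bp (x axis) for the 8 members with an element (squares, coloured by class) over the number of HSEs of all ORF rows per 20 bp (grey bars). Of the 8 squares, 5 stack between 170 and 175 bp upstream and the other 3 lie between 105.5 and 130 bp upstream, while the grey bars spread over the whole 500 bp.

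The dyads were read from 4 columns of the table, the TSS, the −1 dyad upstream of it and 2 columns of +1 dyads downstream of it. The study's methods define the +1 dyad as the called dyad nearest to the TSS, within 500 bp downstream. The −1 dyad is the first one upstream of the +1 dyad. The methods do not say which column this describes. The deposited length of the nucleosome-depleted region (NDR) equals the distance from the −1 dyad to the first +1 column in 4903 of 4903 rows, and that column is meant by "+1 dyad" below. The second column has coordinates ending in 1 in 4947 of 4949 rows, all 10 members included, against 9.81% in the first, so it lies on a grid of 10 bp. Percentiles give the share of ORF rows with a smaller value, with ties counted equally on both sides.

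The members' NDRs were mostly either shorter or longer than those of most genes. The median NDR was 310 bp in the 10 members and 265 bp in ORF rows (n = 4485, quartiles 228 and 298 bp). Measured to the second +1 column the order turned, with 248.5 bp in members and 261 bp in ORF rows (n = 4483). With the first column HSP12, HSP78, HSC82, SSA1 and SSA2 were above the upper quartile, 5 of 10 members beside 24.9% of ORF rows. HSP26, HSP42, HSP82 and SSA4 were below the lower quartile, 4 of 10 beside 24.9%. HSP104 alone lay between the quartiles. From the TSS, the median distance to the +1 dyad was 110 bp in members and 54 bp in ORF rows, and that to the −1 dyad was 167 bp in members and 211 bp in ORF rows.

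**Figure D2:**
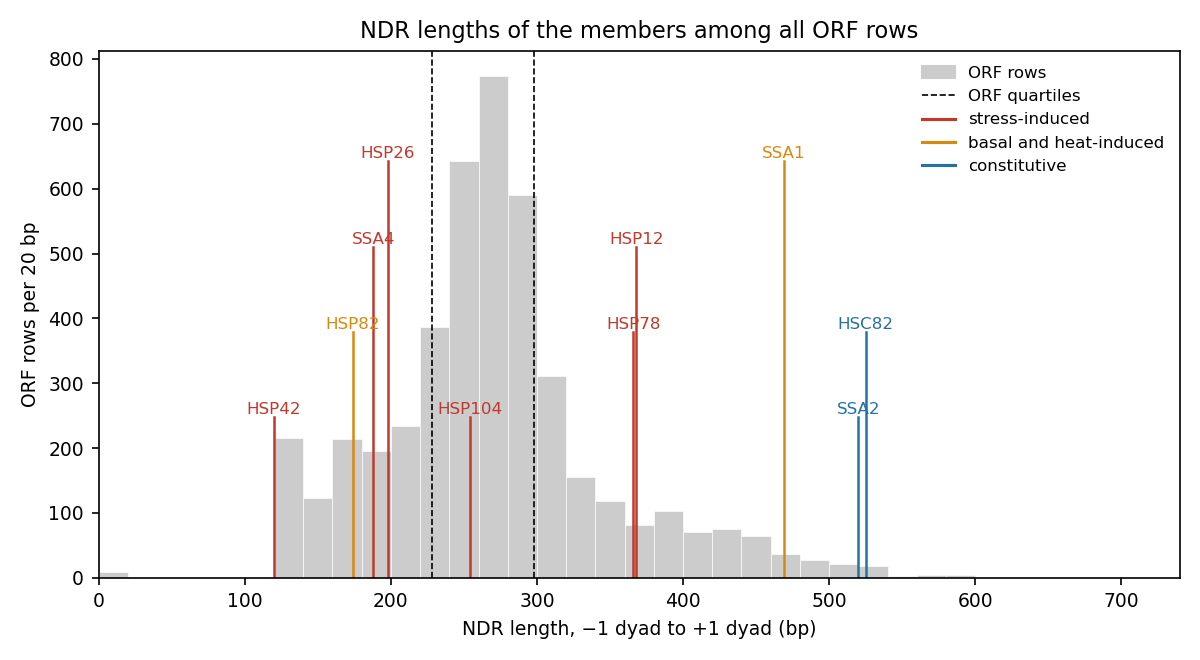
NDR length in bp (x axis) of all ORF rows, as the number of rows per 20 bp (grey bars), with each member as a line coloured by class and the ORF quartiles, 228 and 298 bp, as dashed lines. The height of a member's line has no meaning. Members lie on both sides of the grey peak, from 120 bp in HSP42 to 525 bp in HSC82, and only HSP104 (254 bp) falls between the dashed lines.

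The 3 small heat shock proteins had very different promoters. HSP12 (YFL014W) encodes a small membrane-associated protein that is abundant in stressed cells. On chromosome VI (SacCer3 coordinates, as for all dyads below) its TSS is at 107214, its +1 dyad at 107388 and its −1 dyad at 107020. The NDR was 368 bp (89.5th percentile, 95% Wilson interval 88.5 to 90.3 over ORF rows, counting error only), and its length came from the +1 side: the +1 dyad was 174 bp downstream (95.8th percentile) and the −1 dyad 194 bp upstream (39.9th percentile). HSP26 (YBR072W), a small heat shock protein of the cytosol that holds unfolded proteins, has its TSS at 381945 on chromosome II, the +1 dyad at 382046 and the −1 dyad at 381848. Its NDR was 198 bp (16.6th percentile), with the −1 dyad 97 bp upstream. HSP42 (YDR171W), the other small heat shock protein of this kind, which sorts aggregates, had the shortest NDR of the members, 120 bp (1.54th percentile, interval 1.22 to 1.94). Its TSS at 806558 on chromosome IV lies between dyads at 806616 and 806496, which are 58 and 62 bp away. The value of 120 bp equals the exclusion distance that the authors kept around each called dyad. Nucleosome cores reaching 73 bp to either side of these dyads would overlap, so this length holds no DNA outside both cores. Whether both nucleosomes occur on the same DNA molecule is not known.

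The 2 disaggregases of the Hsp100 type also differed. HSP104 (YLL026W), which pulls proteins out of aggregates in the cytosol, was near the middle of all genes. Its NDR was 254 bp (40.4th percentile), with the +1 dyad at 88488 on chromosome XII, 39 bp past the TSS at 88449, and the −1 dyad at 88234, 215 bp upstream. HSP78 (YDR258C), its mitochondrial relative, had an NDR of 366 bp (89.2nd percentile), which came from the −1 side. The −1 dyad at 974609 on chromosome IV was 300 bp upstream of the TSS at 974309 (89.5th percentile), while the +1 dyad at 974243 was 66 bp downstream (69.3rd percentile).

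Among the Hsp70 genes of the members, SSA4 had a short NDR, and SSA1 and SSA2 had long ones with the first +1 column. SSA4 (YER103W), the strongly heat-induced cytosolic Hsp70, had 188 bp (14.5th percentile), with dyads at 364635 and 364447 on chromosome V, 119 bp downstream and 69 bp upstream of the TSS at 364516. SSA1 (YAL005C), a cytosolic Hsp70 with basal and heat-induced expression, had 469 bp (97.8th percentile). Its +1 dyad at 141352 on chromosome I was 329 bp past the TSS at 141681, the 99.7th percentile and the farthest of the members, and its −1 dyad at 141821 was 140 bp upstream. SSA2 (YLL024C), the constitutive Hsp70, had 520 bp (99.2nd percentile, interval 98.9 to 99.4), which lay on the other side of the TSS. Its −1 dyad at 98070 on chromosome XII was 488 bp upstream of the TSS at 97582 (99.9th percentile), while the +1 dyad at 97550 was 32 bp downstream (14.9th percentile).

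The Hsp90 pair had one of the shortest and the longest NDR of the members. HSP82 (YPL240C), the heat-inducible Hsp90, had 174 bp (11.4th percentile). Its −1 dyad at 98712 on chromosome XVI was 35 bp upstream of the TSS at 98677 (4.4th percentile), and the +1 dyad at 98538 was 139 bp downstream (92.1st percentile), so that the TSS lay near the −1 dyad. HSC82 (YMR186W), the constitutive Hsp90, had 525 bp (99.4th percentile, interval 99.1 to 99.6). Its dyads at 632500 and 631975 on chromosome XIII were 179 bp downstream (96.1st percentile) and 346 bp upstream (93.6th percentile) of the TSS at 632321. Both ends of the NDR were thus far from the TSS in HSC82 with the first +1 column. With the second column the +1 dyad was 10 bp downstream (2.46th percentile).

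Stress-induced members had shorter NDRs than the constitutive ones. The median was 226 bp (range 120 to 368, n = 6) in stress-induced members and 522.5 bp (range 520 to 525, n = 2) in constitutive members, a difference of −296.5 bp, and the ranges did not overlap. The −1 dyad was 145.5 bp upstream of the TSS (62 to 300) in stress-induced members and 417 bp (346 to 488) in constitutive members, a difference of −271.5 bp, again without overlap. The +1 dyad was 83.5 bp (39 to 174) downstream in stress-induced members and 105.5 bp (32 to 179) in constitutive members, and these ranges overlapped. SSA1 (469 bp) lay nearer to the constitutive members and HSP82 (174 bp) among the stress-induced ones. With both counted as constitutive, the ranges of NDR length and of −1 distance overlapped, and the differences were −268.5 bp in NDR length, −97.5 bp in −1 distance and −75.5 bp in +1 distance. With SSA1 as constitutive and HSP82 as stress-induced, the −1 difference was −249 bp with overlapping ranges. With 2 constitutive genes, each the relative of an inducible one, the difference is a description of these genes.

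**Figure D3:**
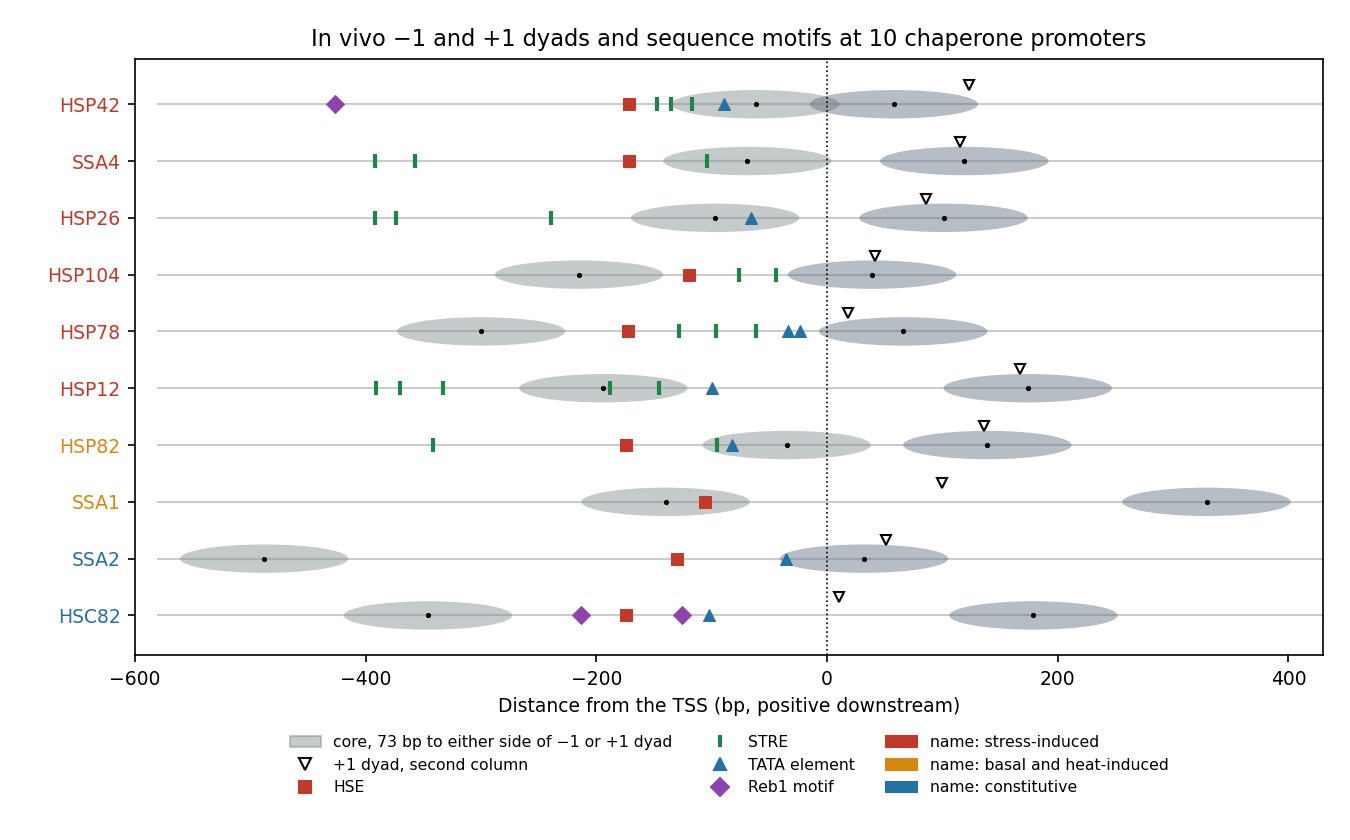
Map of the 10 promoters aligned on the TSS (dotted line), with distance in bp on the x axis, stress-induced members at the top, HSP82 and SSA1 below them and constitutive members at the bottom. Ellipses span 73 bp to either side of the −1 and +1 dyads, open triangles mark the +1 dyad of the second column, and symbols mark HSEs, STREs, TATA elements and Reb1 motifs. The left ellipse touches the TSS in HSP42, SSA4 and HSP82 and lies farthest left in SSA2.

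In 3 members the TSS itself lay within 73 bp of the −1 dyad, that is inside the core of the −1 nucleosome. These were HSP42 (62 bp), SSA4 (69 bp) and HSP82 (35 bp), beside 8.95% of ORF rows. With 60 bp as the half-width only HSP82 was left. In HSP42 the TSS was nearer to the +1 dyad (58 bp) and so lay within the +1 core too. The start codon was also near or upstream of the +1 dyad in most members: in 7 of 10 the +1 dyad was at or past the start codon, beside 44.0% of ORF rows. It was past it by 145 bp in HSC82, 132 bp in HSP12, 87 bp in HSP82, 79 bp in SSA1, 46 bp in SSA4 and 16 bp in HSP26, and at it in HSP78. With the second column 5 of 10 members were at or past the start codon, and no share of ORF rows is given for that column. In HSP104 the +1 dyad was 135 bp before the start codon, with a leader of 174 bp. The longest leader was that of SSA1, 250 bp (90.2nd percentile).

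The 2 columns of +1 dyads disagreed most at SSA1 and HSC82. They were over 20 bp apart in 4 of 10 members, beside 23.8% of ORF rows. At SSA1 the second column gave 141581, 100 bp downstream of the TSS and 229 bp upstream of the first (99.5th percentile of the distance between columns). At HSC82 it gave 632331, 10 bp downstream of the TSS and 169 bp upstream of the first (97.3rd percentile). At HSP78 it was 48 bp upstream of the first and at HSP42 65 bp downstream of it, whereas the other 6 members were 3 to 19 bp apart.

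Part of the long and short NDRs therefore rested on the column. Measured to the second column, the NDR was 240 bp in SSA1 (35.8th percentile), 356 bp in HSC82 (88.0th percentile) and 185 bp in HSP42 (14.6th percentile). Little changed at SSA2 with 539 bp (99.8th percentile), HSP12 with 361 bp (88.6th percentile) and HSP82 with 171 bp (11.5th percentile). The median was then 221 bp (183 to 361) in stress-induced members and 447.5 bp (356 to 539) in constitutive members, a difference of −226.5 bp with overlapping ranges. For the distance from the TSS to the +1 dyad the sign turned: 100.5 bp in stress-induced members and 30.5 bp in constitutive members with the second column, a difference of 70 bp, against −22 bp with the first. The same listed −1 dyads were used with both columns. Since the −1 dyad is defined from the +1 dyad, it might differ for the second column, which was not tested. At SSA1 and HSC82 the second column's dyad lies between the −1 dyad and the first column's +1 dyad.

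**Figure D4:**
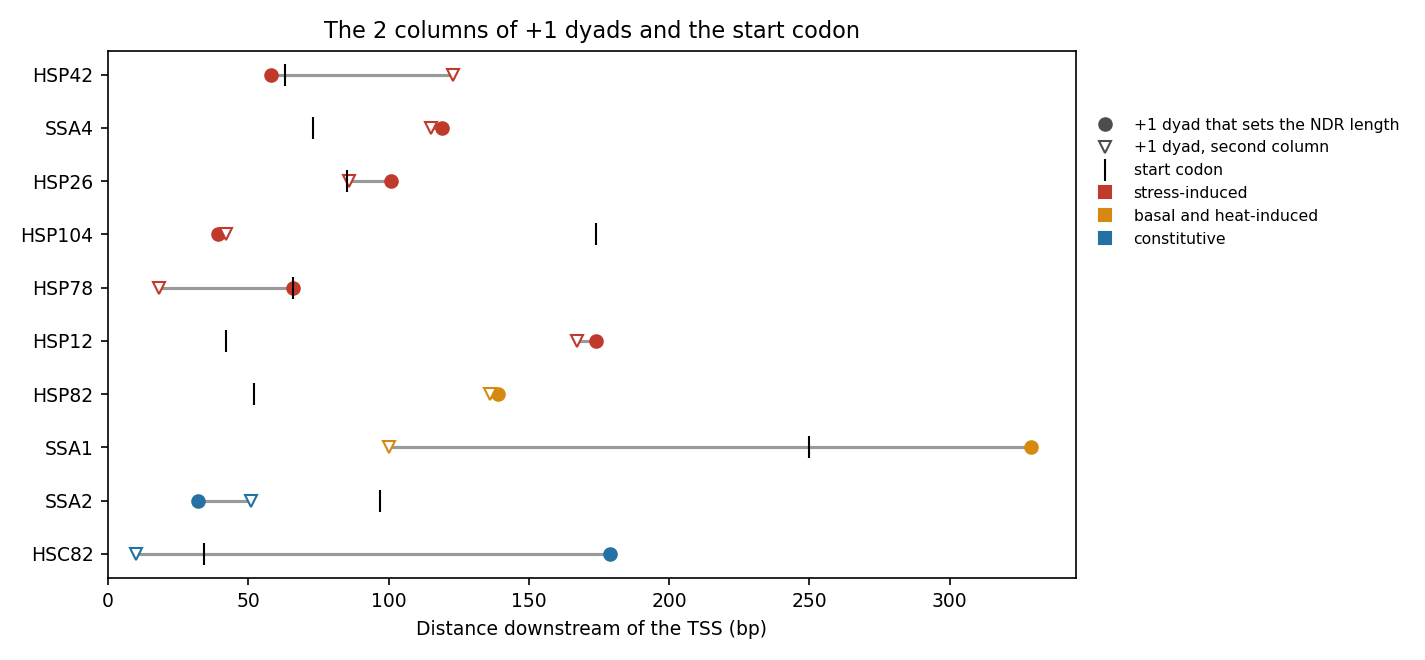
Distance of the +1 dyad from the TSS in bp (x axis) in both columns, filled circles for the column that sets the NDR length and open triangles for the second, with the start codon as a black bar, for the 10 members (rows, coloured by class). The long grey lines at SSA1 and HSC82 are gaps of 229 and 169 bp, and in both genes the start codon lies between the 2 symbols.

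The elements were then placed against the nucleosomes. In 4 members, HSP78, HSP104, HSC82 and SSA2, the HSE centre lay between the −1 and +1 dyads and over 73 bp from either. Its distance from the −1 dyad was 127.5 bp in HSP78, 95.5 bp in HSP104, 171.5 bp in HSC82 and 358 bp in SSA2. In SSA1 it lay 34.5 bp from the −1 dyad, within the core. In the other 3 members, those whose TSS is inside the −1 core, the HSE was on the far side of the −1 nucleosome, 109.5 bp upstream of the −1 dyad in HSP42, 102.5 bp in SSA4 and 139.5 bp in HSP82. These 3 of 8 stand beside 53.7% of the 121 HSEs of ORF rows, so this position was not more frequent in members. A dyad close upstream of the TSS is named −1 by definition. A TSS in the −1 core, a short NDR and an HSE beyond the −1 dyad are therefore linked. The next dyad listed upstream of the −1 dyad, for any gene, was 3857 bp away in HSP42, 733 bp in SSA4 and 270 bp in HSP82. Only +1, −1 and last dyads are listed, so other nucleosomes in these stretches are unknown. No HSE centre of a member fell within 73 bp of a +1 dyad. The shares of the HSEs of ORF rows that lie between the dyads or within a core are not given. Whether the other placements are usual is therefore not known.

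Among the Hsp90 genes the element had the same distance from the TSS but a different place relative to the nucleosomes, and both promoters are shown for this reason. The lines run to the base before the TSS, from 200 bp upstream in HSP82 (chrXVI:98678-98877, minus strand) and 230 bp upstream in HSC82 (chrXIII:632091-632320, plus strand). Capitals mark, from left to right, the HSE, a STRE and the TATA element in HSP82, and a Reb1 motif, the HSE, a second Reb1 motif and the TATA element in HSC82.
HSP82: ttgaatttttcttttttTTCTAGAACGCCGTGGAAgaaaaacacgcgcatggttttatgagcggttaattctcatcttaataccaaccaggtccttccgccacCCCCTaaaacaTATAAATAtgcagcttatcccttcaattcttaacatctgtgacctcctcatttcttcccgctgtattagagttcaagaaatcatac
HSC82: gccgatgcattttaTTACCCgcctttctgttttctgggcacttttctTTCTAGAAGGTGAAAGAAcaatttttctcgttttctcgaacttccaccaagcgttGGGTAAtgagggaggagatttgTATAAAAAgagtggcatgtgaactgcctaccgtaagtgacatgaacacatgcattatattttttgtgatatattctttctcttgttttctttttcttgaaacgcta

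In HSP82 the STRE and the TATA element of this stretch lay within the −1 core, 60 and 47.5 bp from the dyad, whereas in HSC82 all 4 capitalized motifs lay outside both cores. Reb1 is a general regulatory factor whose sites the study used as barriers for remodeled nucleosomes. Its motif, TTACCC read on both strands of the 400 bp before the +1 dyad, was in HSC82 alone, 1 of 10 members beside 22.7% of ORF rows. The 2 motif centres were 392.5 and 304.5 bp upstream of the +1 dyad, and 223.5 and 135.5 bp upstream of the second column's dyad. HSP42 has 1 such motif farther away, 484.5 bp upstream of its +1 dyad. The promoters of the pair were 42.9% identical in the 200 bp before the TSS, while their coding sequences were 91.7% identical. For SSA1 and SSA2 these values were 42.7% and 96.4%. The other pairs aligned have less similar coding sequences. Their 200 bp before the TSS were from 36.9% (HSP104 and HSP78) to 42.2% (SSA2 and SSA4) identical, so the values of the close pairs were little higher.

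STREs followed the classes in part, whereas TATA elements were found in members of every class but SSA1, HSP104 and SSA4 lacked them. A STRE was counted as AGGGG, read on both strands of the 500 bp before the TSS. At least 2 were found in 7 of 10 members, beside 8.02% of ORF rows: all 6 stress-induced members had 2 to 5 (median 3), HSP82 had 2, and HSC82, SSA2 and SSA1 had none. A TATA element was counted as TATA followed by A or T, A, A or T, and A or G, read on both strands of the 200 bp before the TSS. It was in 7 of 10 members, beside 29.6% of ORF rows, and was not found in HSP104, SSA4 and SSA1. No HSE, STRE, TATA or Reb1 match overlapped another kind of match at the members.

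The 2 members without a nearby HSE are shown for their STREs and TATA elements. The HSP12 line runs from 372 to 90 bp upstream of the TSS (chrVI:106842-107124, plus strand), with 4 of its 5 STREs and the TATA element in capitals. The HSP26 line runs from 269 to 62 bp upstream (chrII:381676-381883, plus strand), with the 2-unit HSE match, 1 of its 3 STREs and the TATA element in capitals.
HSP12: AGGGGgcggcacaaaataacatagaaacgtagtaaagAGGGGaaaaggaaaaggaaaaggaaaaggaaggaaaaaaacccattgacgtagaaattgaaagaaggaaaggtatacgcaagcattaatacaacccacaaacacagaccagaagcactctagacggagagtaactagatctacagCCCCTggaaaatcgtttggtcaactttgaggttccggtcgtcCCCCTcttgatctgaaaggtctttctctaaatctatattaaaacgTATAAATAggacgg
HSP26: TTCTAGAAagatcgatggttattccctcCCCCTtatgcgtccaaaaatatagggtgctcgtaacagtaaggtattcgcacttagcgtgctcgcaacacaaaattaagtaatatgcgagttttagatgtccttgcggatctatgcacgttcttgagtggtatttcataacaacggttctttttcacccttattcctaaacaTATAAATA

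In HSP12 the last 2 STREs of the line were 6 and 48 bp from the −1 dyad, inside its core, and the TATA element was 94.5 bp from it, outside. In HSP26 all 3 STREs were upstream of the −1 dyad, at least 142 bp from it, and the TATA element was 31.5 bp from it, inside the core. The TATA element was within the −1 core also in HSP42 (27.5 bp from the dyad). In the constitutive SSA2 the TATA element was 67.5 bp from the +1 dyad, inside the +1 core, though outside it with 60 bp as the half-width. STREs of HSP42, 73 and 55 bp from the −1 dyad, and a STRE of SSA4, 35 bp from it, were also in the −1 core. With 60 bp as the half-width the HSP42 STRE at 73 bp was outside. In HSP78 and HSP104, by contrast, every STRE upstream of the TSS lay between the dyads and outside both cores.

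DNA rigidity upstream of the +1 dyad varied widely among the members. The score of the study, the length of the longest run of A bases followed by T bases at a position, was averaged over 21 bp centred 100 bp and 55 bp upstream of the +1 dyad. At 100 bp the median was 1.67 in members and 1.90 in ORF rows, and at 55 bp it was 1.81 in members and 1.43 in ORF rows. HSP104 had the highest score at 100 bp, 4.95 (95.4th percentile), and SSA4 at 55 bp, 3.52 (97.3rd percentile). The score was higher at 100 than at 55 bp in 5 of 10 members, beside 65.4% of ORF rows. With the second +1 column it was so in 3 members, and no share of ORF rows is given for that column. The A/T content of the 200 bp before the TSS was between 61.0% and 65.0% in 9 members, near the ORF median of 64.5%, and 54.0% in HSP42 (3.43rd percentile).

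Near-identical paralogs can lose reads, since the authors left out reads with several matches. Of the read starts that would map to the dyads, those whose 36 bases occur more than once in the genome were at the +1 dyad of HSC82 only, 2.94% of its starts, 1 of 10 members beside 0.795% of ORF rows with any. No −1 dyad of a member had such starts. Only called dyads were checked, so a dyad missed for want of unique reads would not show here.

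Recognition sites of BamHI, EcoRV or KpnI, the enzymes with which the study made DNA ends as barriers for INO80, lay within 500 bp of the +1 dyad of 6 of 10 members, beside 44.1% of ORF rows. HSP82 had 3 KpnI sites and 1 EcoRV site, and HSP42 and SSA4 had 2 EcoRV sites each. HSC82 had 2 KpnI sites, SSA1 had 1 KpnI site and HSP78 had 1 BamHI site. HSP12, HSP26, HSP104 and SSA2 had none.

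Some of the dyads were shared with neighbouring genes. The −1 dyad of SSA1 is also that of the divergent gene EFB1, and the −1 dyad of HSP104 is the last dyad listed for the tandem gene ISA1. The −1 dyad of SSA2 lay inside the upstream gene POM33, 585 bp before the SSA2 start codon with 511 bp between the genes, so its NDR holds the intergenic region except the last 65 bp before the start codon. In the other 9 members the −1 dyad lay in the intergenic region, which ranged from 292 bp at HSP12, beside the divergent YFL015C, to 2103 bp at HSP42. At HSP12 the last dyad of the transcript was 120 bp from the +1 dyad, within a transcript of 537 bp.

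The longer list of 34 other chaperone and co-chaperone genes had 32 genes in the table. Their NDR had a median of 313.5 bp (120 to 587), with 17 above the upper and 7 below the lower ORF quartile, beside 24.9% of ORF rows each. The longest were those of SIS1 and MDJ1, Hsp40 proteins of the cytosol and of mitochondria, with 587 and 513 bp, and of ZUO1, a ribosome-associated Hsp40 protein, with 536 bp. The shortest were those of HSP31 (120 bp), HSP60, the mitochondrial chaperonin (164 bp), and YDJ1, a cytosolic Hsp40 protein (192 bp). An HSE was in 11 of the 32, beside 2.69% of ORF rows, and at least 2 STREs were in 3, beside 8.02%. HSF1, the gene of the heat shock factor, had an NDR of 121 bp (3.04th percentile), MSN2 300 bp (75.7th percentile) and MSN4 355 bp (87.8th percentile).

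**Figure D5:**
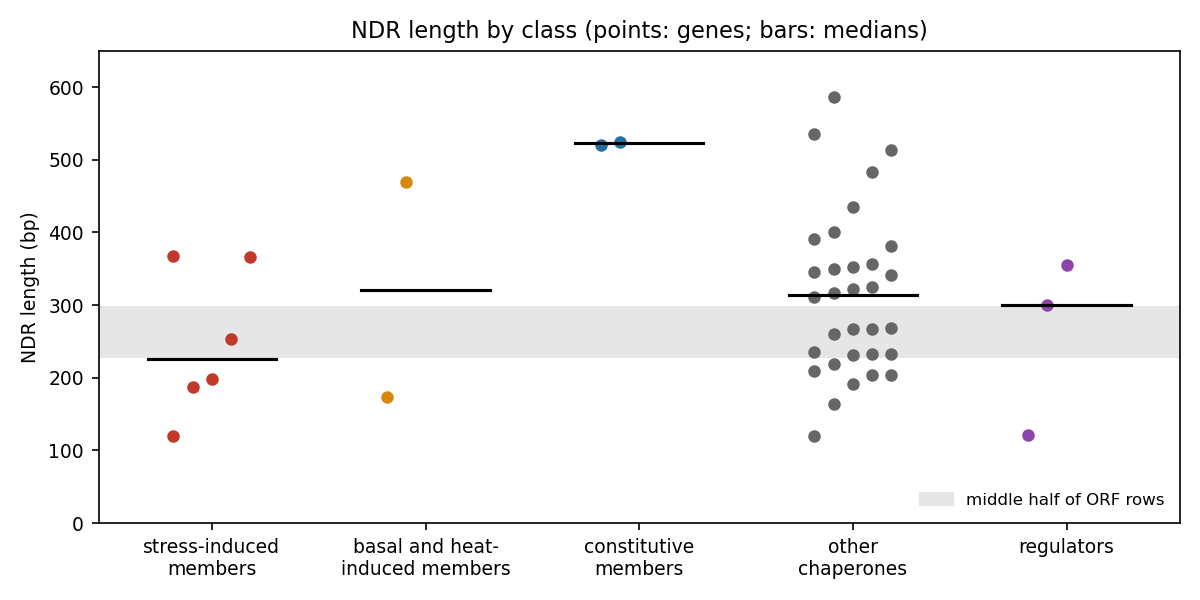
NDR length in bp (y axis) of each gene (points) with the median (bars) for the 6 stress-induced, 2 basal and heat-induced and 2 constitutive members, 32 other chaperone genes and 3 regulators. The grey band spans the ORF quartiles, 228 to 298 bp. The points of the stress-induced members reach from 120 to 368 bp and those of the constitutive members are at 520 and 525 bp.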

How the data were processed

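The authors mapped reads of the in vivo MNase-seq library to SacCer3 with Bowtie, left out reads with several matches, moved each read end to the nucleosome midpoint, smoothed the resulting density and called dyads in order of height with an exclusion of 120 bp, leaving out the lowest calls. The deposited values are coordinates in bp (unit: other), and 8 further numeric columns were not used. Distances were computed along transcription with Python 3.11.15, NumPy 2.4.6 and pandas 2.3.3, alignments with Biopython 1.88 and figures with matplotlib 3.10.9. Sequence and annotation were R64 from RefSeq. All 1662 BamHI, 4221 EcoRV and 1904 KpnI sites listed in the deposited files lay on their recognition sequences in it. The submitters' processing notes also name Bowtie2 2.2.9. Scripts were tested on simulated data.

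Members, classes and lists were chosen with earlier results of these data known. Genes named are the 10 members, their upstream neighbours, the 3 longest and 3 shortest NDRs of the other chaperones and the 3 regulators. The +1 column that sets the NDR length was taken as main after the table was read, in exchange with the one first planned. Alternatives concerned the +1 column, reference rows, classes, windows, motifs and core width. The reconstituted libraries were not analysed here.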

Additional observations from a re-analysis of the deposited data

How the results depend on the processing

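With the second column as the +1 dyad, a choice added after the table was seen, the members' median NDR was 248.5 bp in place of 310 bp (below the 261 bp of ORF rows, where 310 bp was above their 265 bp), their median +1 distance 93 bp in place of 110 bp, the difference between stress-induced and constitutive members −226.5 bp in place of −296.5 bp, and the members more rigid at 100 than at 55 bp numbered 3 in place of 5. The difference between these classes in +1 distance changed sign, 70 bp in place of −22 bp. The NDR difference was −268.5 bp with HSP82 and SSA1 counted as constitutive and −322 bp with SSA1 as constitutive and HSP82 as stress-induced. Above the ORF upper decile were 3 members in place of the 5 above the quartile. With 60 bp as core half-width, also chosen after seeing the data, 1 TSS in place of 3 lay in the −1 core. Between the dyads only, 5 members in place of 8 had an HSE. At least 2 STREs were in 4 members (HSP12, HSP78, HSP104 and SSA1) in place of 7, in a window that also covers sequence past the TSS, where both of those of SSA1 lie. No share of ORF rows is given for the window between the dyads, and its length differs between members. Repeated read starts of 36 bases were at the +1 dyad of 1 member, HSC82, and those of 50 bases at 0. The other 20 of 31 alternatives for summary results gave the same value or a count within 1.5 times of the main one. Among them, 6 members in place of 4 had +1 columns over 10 bp apart, while the median distance in ORF rows was 11 bp. The second column's +1 dyad was at or past the start codon in 5 members in place of 7. The shorter motif TATAAA was in 5 in place of 7. No share of ORF rows is given for these settings. The cause of the shifts between settings was not tested.

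No paired analysis was possible because the dyads come from 1 in vivo library and no result comes from a test. Peak height and depth are unknown, so no error can be given for a dyad, and 1 library gives no replicate spread. The NDR of HSP42 is as long as the exclusion distance, and a dyad among the calls left out would lengthen an NDR.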
